A study of Homo sapiens with 24 samples.

Results

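The genes described here encode 9 enzymes that make serine and pass its carbon into the folate pathway: PHGDH, PSAT1, PSPH, SHMT1, SHMT2, MTHFD1, MTHFD2, MTHFD1L and TYMS. They were chosen by name, out of 20037 protein-coding genes on chromosomes 1 to 22, X and Y. A gene was counted as carrying Myc when a deposited Myc peak reached within 1 kb of either end of its gene span in the hg38 RefSeq annotation. Of the 9 genes, 6 carried a Myc peak without doxycycline and 7 carried one at day 5 of doxycycline. MTHFD2 had the highest-ranked peak of the group in both libraries, MTHFD1L was listed only at day 5, and PHGDH and SHMT1 had no peak in either.

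Serine is made from a glycolytic intermediate in a short series of steps: PHGDH oxidises phosphoglycerate, PSAT1 transfers an amino group from glutamate, and PSPH removes the phosphate. The serine hydroxymethyltransferases, SHMT1 in the cytosol and SHMT2 in mitochondria, then split serine into glycine and a carbon unit held on tetrahydrofolate. In mitochondria MTHFD2 oxidises that unit and MTHFD1L releases it as formate. MTHFD1 puts formate back on folate in the cytosol, and TYMS spends the unit on thymidylate for DNA. Dividing cells also draw on these units for purines. Myc is a transcription factor that binds DNA as a dimer with Max, preferring the E-box CACGTG, and genes of this pathway are among its described targets.

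The assay was CUT&Tag: an antibody against Myc directs a transposase that cuts and tags nearby DNA. It was run in MIA PaCa-2, a human cell line established from a pancreatic carcinoma, with a Tet-On (doxycycline-inducible) MED30, a subunit of the Mediator complex that links transcription factors to RNA polymerase II. Used here were 2 of the 24 samples of the series: 1 Myc library without doxycycline and 1 whose title gives 5 days with doxycycline, although the shared protocol text speaks of 2 days. Both libraries came from cells carrying the inducible construct and lightly fixed with formaldehyde, so the drug and the induced MED30 cannot be told apart. The design text asks whether extra MED30 alters where other factors bind. The other 22 samples, IgG controls among them, were not analysed here, so no peak was removed here on the basis of IgG. Whether the authors called their peaks against IgG is unknown.

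The lists held 3472 peaks without doxycycline and 6727 at day 5 on chromosomes 1 to 22, X and Y. The strength of a peak is given as summit fragments, the number of sequenced fragments stacked over its highest point. This number was recovered from the fold and p-value that the authors deposited for each peak. The median peak had 11 summit fragments without doxycycline and 12 at day 5. Each condition had 1 library, so no difference has a replicate check and no test between conditions was made. Intervals are exact Poisson intervals at 95%, or exact conditional binomial intervals for ratios, and cover counting error only, not duplicated PCR products or the spread between libraries. Peaks show binding, not expression, so the cell line could not be checked on its markers. Of KRT8, KRT18, KRT19 and EPCAM, markers of duct and carcinoma epithelium, 0 of 4 had a Myc peak in either library. Of the acinar markers 0 of 3, and of the islet markers 0 of 2, had one. The mesenchymal marker VIM had one in both. Over all protein-coding genes, 14.4% had a peak without doxycycline and 27.4% at day 5, so these marker counts do not bear on cell type.

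Promoter sequences of 7 of the 9 genes were matched by symbol in RefSeq tables of GRCh38.p14, the assembly also called hg38. They run from 250 bases before the gene start to 50 bases after it. The stretches below lie directly before the start, on the strand of the gene, 5′ to 3′. MTHFD2 (chr2:74198365-74198614, plus strand) and MTHFD1 (chr14:64388103-64388352, plus strand) are shown because they had the largest numbers of summit fragments at day 5. MTHFD1L (chr6:150866320-150866349, plus strand) is shown as 30 bases around its E-box, because it was listed only at day 5. PHGDH (chr1:119711684-119711933, plus strand) and SHMT1 (chr17:18363551-18363800, minus strand) are shown as the genes with no peak. Capitals mark CACGTG and the variants CACGCG and CATGTG, searched on both strands, so that CGCGTG and CACATG also count.
MTHFD2: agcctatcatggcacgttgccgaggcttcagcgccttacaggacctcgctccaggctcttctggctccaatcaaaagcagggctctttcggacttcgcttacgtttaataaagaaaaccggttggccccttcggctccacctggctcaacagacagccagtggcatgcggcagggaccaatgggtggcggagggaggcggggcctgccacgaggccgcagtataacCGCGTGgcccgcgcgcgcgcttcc
MTHFD1: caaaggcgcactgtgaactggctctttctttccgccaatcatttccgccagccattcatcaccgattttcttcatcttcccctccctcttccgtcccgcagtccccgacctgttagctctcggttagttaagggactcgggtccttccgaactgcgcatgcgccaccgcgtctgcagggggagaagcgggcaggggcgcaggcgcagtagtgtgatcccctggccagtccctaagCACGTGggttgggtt
MTHFD1L: cacgcccggctcCACGTGcgcagccggccg
PHGDH: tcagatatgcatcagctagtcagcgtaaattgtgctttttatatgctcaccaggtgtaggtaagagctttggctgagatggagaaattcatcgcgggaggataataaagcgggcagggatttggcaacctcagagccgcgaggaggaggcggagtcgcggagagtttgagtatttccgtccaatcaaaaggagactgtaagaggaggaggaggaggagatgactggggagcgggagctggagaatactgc
SHMT1: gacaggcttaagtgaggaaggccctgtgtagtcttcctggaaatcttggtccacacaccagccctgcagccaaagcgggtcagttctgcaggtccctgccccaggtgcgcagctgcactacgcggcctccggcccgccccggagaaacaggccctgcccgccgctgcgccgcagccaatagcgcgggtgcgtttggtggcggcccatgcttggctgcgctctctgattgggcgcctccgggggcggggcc

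In the whole windows of 300 bases, CACGTG was found in 2 of the 7 matched genes, MTHFD1 and MTHFD1L. With the variants counted too, MTHFD2 and PSAT1 also had a match, and PHGDH, SHMT1 and TYMS had none. Both genes without a peak therefore belonged to the matched genes without any of these letters, but so did TYMS, which had a peak in both libraries. Of all 35116 promoter windows in the table, 7.26% held CACGTG and 27.2% held CACGTG or a variant. Those shares are per window, whereas a gene was counted as matched if any of its windows had a match, so they are not a like background. Among protein-coding genes with a promoter window, CACGTG was present in 19.3% (17.7 to 21.0, exact binomial interval) of 2224 with a peak in both libraries. It was present in 8.69% (8.17 to 9.24) of 10930 with a peak in neither. For a peak at day 5 only, as at MTHFD1L, it was 12.9% of 2429, and without doxycycline only 13.1% of 260. With the variants counted too, the shares were 46.0% for both libraries, 37.3% for day 5 only, 39.2% for without doxycycline only and 31.5% for neither. These shares were not matched on base composition, and the GC content of the 250 bases before the start ran from 51.2% at PHGDH to 71.2% at TYMS, apart from MTHFD1L, with several starts. The median over all windows was 58.0%. A match describes letters in a window and is not a measured binding site.

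Across the 9 genes the share with a Myc peak was 66.7% without doxycycline (6 of 9, exact binomial interval 29.9 to 92.5), where 14.4% of all protein-coding genes had one. At day 5 it was 77.8% (7 of 9, 40.0 to 97.2), where 27.4% of all protein-coding genes had one. The same 6 genes were listed in both libraries, beside 12.9% of all protein-coding genes. Only MTHFD1L was listed at day 5 alone (11.1%), a share near the 14.5% found over all genes, and 0 of 9 were listed without doxycycline alone, beside 1.57% of all genes. Because genes of this pathway were chosen with earlier results of these lists known, the counts describe the group and are not a test of it.

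**Figure D1:**
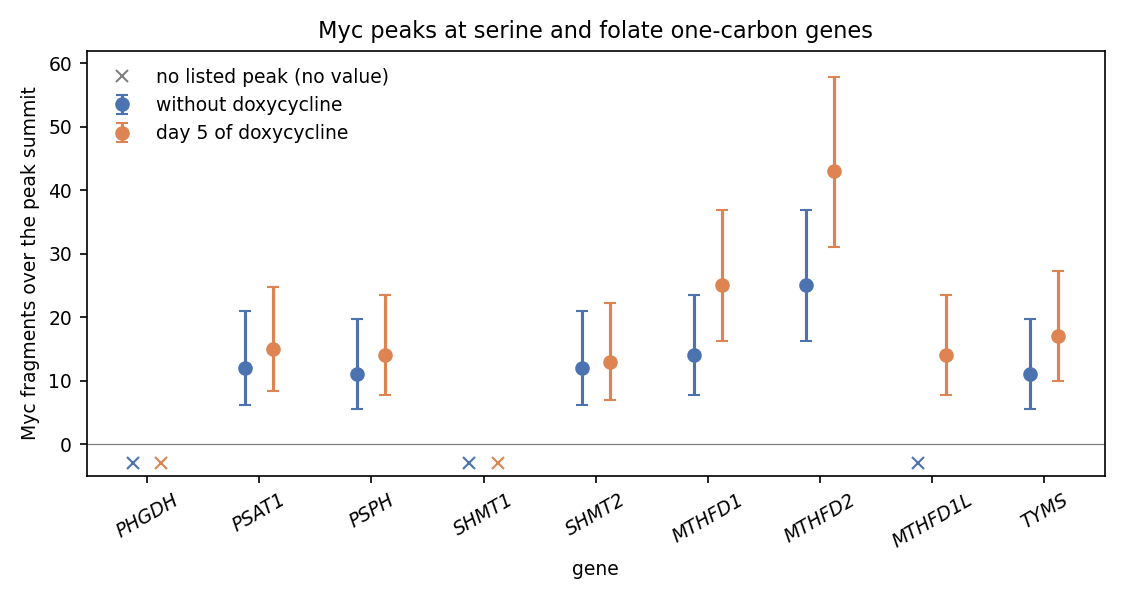
Summit fragments (y axis) of the Myc peak within 1 kb of a gene end for each of the 9 enzymes (x axis), without doxycycline (blue) and at day 5 (orange), 1 library each, with exact Poisson 95% intervals. Crosses below 0 mark libraries with no listed peak and are not values. MTHFD2 stood highest in both libraries, with 25 and 43 fragments, and the intervals of every pair overlapped.

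In serine synthesis the genes of the first enzyme and of the later ones differed in listed peaks. PHGDH (chromosome 1, 119711934 to 119744215), which commits phosphoglycerate to serine, had no Myc peak, and the nearest lay 325 kb away in both libraries, at an end of NOTCH2. A missing peak does not show that Myc was absent, because the coverage behind unlisted regions was not used here; listed peaks had as few as 3 summit fragments. PSAT1 (chromosome 9, 78297125 to 78330093) had 12 summit fragments without doxycycline (6.20 to 21.0) and 15 at day 5 (8.40 to 24.7). Its peak ranked 995 of 3472 by the authors' −log10 q without doxycycline and 2787 of 6727 at day 5. PSPH (chromosome 7, 56011064 to 56051444) had 11 (5.49 to 19.7) and 14 (7.65 to 23.5) fragments, the lowest rank among the 9 genes in each list, at 2112 and 3161. So Myc peaks of middling strength lay within 1 kb of the last 2 genes of the route in both libraries, and none was listed at the first. The PSPH peak also lay within 1 kb of a neighbouring gene, CCT6A, so it cannot be given to PSPH alone.

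The PSPH peak lay between PSPH and CCT6A, a member of the cytosolic chaperonin TRiC, and fell within 1 kb of both genes. Its summits were 171 bp outside the PSPH span without doxycycline and 132 bp outside at day 5, so a peak of either gene cannot be told from a peak of the other. PSPH also held a peak inside its span, 17.3 kb from that end, in both libraries. That inner peak (56033726 to 56034232 without doxycycline, 56033765 to 56034604 at day 5) had 9 (4.12 to 17.1) and 14 (7.65 to 23.5) summit fragments and reached within 1 kb of no annotated gene end. No other gene of the group had a listed peak inside its span beyond 1 kb from an end.

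Of the serine hydroxymethyltransferases, the mitochondrial one was listed and the cytosolic one was not. SHMT2 (chromosome 12, 57229711 to 57234935) had 12 summit fragments without doxycycline (6.20 to 21.0) and 13 at day 5 (6.92 to 22.2), ranks 949 and 1988. Its peaks lay just inside the gene end, with summits 315 and 135 bp into the span. SHMT1 (chromosome 17, 18327873 to 18363550) had no peak, and the nearest lay 67.1 kb from its span without doxycycline. At day 5 the nearest was 12.6 kb away, between TOP3A and SMCR8.

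Among the folate enzymes, MTHFD2 (chromosome 2, 74198615 to 74217565), the mitochondrial dehydrogenase and cyclohydrolase, had 25 summit fragments without doxycycline (16.2 to 36.9) and 43 at day 5 (31.1 to 57.9). It ranked 286 of 3472 and 103 of 6727, within the upper 8.24% and 1.53% of the lists. The variant CGCGTG begins 24 bases before its start, and its centre lay 49 bp from the summit without doxycycline and 236 bp from the summit at day 5. By day 5 fragments MTHFD2 was thus above the other 6 listed genes, which had between 13 and 25. Its interval still overlapped that of MTHFD1 (16.2 to 36.9). Of 2574 other genes with a peak in both libraries, those with the most similar pair of fragment numbers were CA11 and DBP, which share a single peak of 25 and 44 fragments, and VPS26C with 25 and 42. The measure was the sum of absolute log2 differences over the 2 libraries, which was 0.03 for each of them.

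MTHFD1 (chromosome 14, 64388353 to 64460025), the cytosolic enzyme with dehydrogenase, cyclohydrolase and synthetase activities, had 14 (7.65 to 23.5) and 25 (16.2 to 36.9) summit fragments. Its peak lay within the upper 35.6% of the list without doxycycline and the upper 14.5% of the list at day 5, second in the group there; ranks from lists of unequal length show no change. Its E-box begins 15 bases before the gene start and lay inside the peak in both libraries, 206 bp from the summit without doxycycline and 90 bp from it at day 5.

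MTHFD1L (chromosome 6, 150865702 to 151101887), the mitochondrial formyltetrahydrofolate synthetase, was listed only at day 5, with 14 fragments (7.65 to 23.5) and rank 2888. The nearest peak without doxycycline lay 350 kb away. Its E-box (150866332 to 150866337) was inside the day 5 peak, 57 bp from the summit, and falls in the windows of 3 of the 4 starts that the table gives. Being listed on 1 side was common at this strength: of 787 protein-coding genes with 13 to 15 day 5 fragments, 48.4% also had a peak without doxycycline. PSPH, with 14 fragments at day 5, was among those that did. For genes with 42 to 44 day 5 fragments, as MTHFD2 had, that share was 98.0% of 50.

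TYMS (chromosome 18, 657653 to 673578), thymidylate synthase, had 11 summit fragments without doxycycline (5.49 to 19.7) and 17 at day 5 (9.90 to 27.2), ranks 1952 and 2527. Both peaks also lay within 1 kb of an end of the antisense gene TYMSOS, so they cannot be given to TYMS alone. The peak without doxycycline began 576 bp inside the span and was the one farthest from a gene end among those counted. Among the genes with no counted peak in a library, the nearest peak was the one 12.6 kb from SHMT1 at day 5. No member without a counted peak thus lay close to the 1 kb limit.

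**Figure D2:**
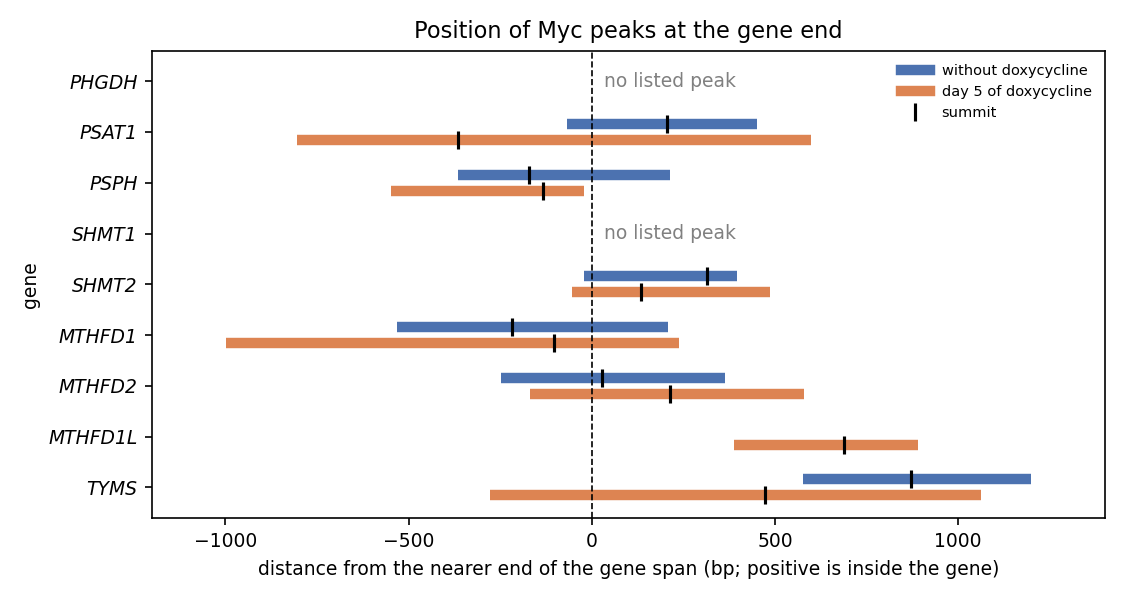
Extent of each Myc peak (bars) and its summit (black ticks) by distance in bp from the nearer end of the gene span (x axis, positive inside the gene), without doxycycline (blue) and at day 5 (orange). The day 5 bars of PSAT1, MTHFD1 and TYMS are the longest, at 1402, 1239 and 1340 bp, and the PSPH peak at day 5 begins 20 bp outside its gene.

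Each of the 6 genes listed in both libraries had more summit fragments at day 5, as did 82.4% of all overlapping peak pairs at protein-coding gene ends. Fragments were not scaled for the total reads of each library, so ratios are read against those of all pairs. MTHFD1 had the highest ratio of day 5 to no doxycycline, 1.79 (0.893 to 3.72), and MTHFD2 followed with 1.72 (1.03 to 2.94). The ratio was 1.55 (0.683 to 3.65) for TYMS, 1.27 (0.537 to 3.10) for PSPH, 1.25 (0.546 to 2.92) for PSAT1 and 1.08 (0.456 to 2.60) for SHMT2. Their median was 1.41, and over all 1964 such pairs it was 1.44, with quartiles of 1.14 and 1.83. Every one of the 6 intervals held that median of all pairs, and the 6 ratios ranked above 19.8% (SHMT2) to 72.8% (MTHFD1) of pairs. The local background, the mean number of fragments that the caller took as given around the summit, was also higher at day 5. Whether the caller drew this background from the Myc library or from an IgG library is unknown. The background was 1.64 times as high at day 5 in the median of the 6 genes and 1.62 times in the median of all pairs. By gene, the background ratio was 2.38 at PSAT1, 1.96 at MTHFD1 and 1.84 at TYMS. At MTHFD2 it was 1.44, at PSPH 1.29 and at SHMT2 1.25. The part of the local background in the summit ratios was not tested.

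**Figure D3:**
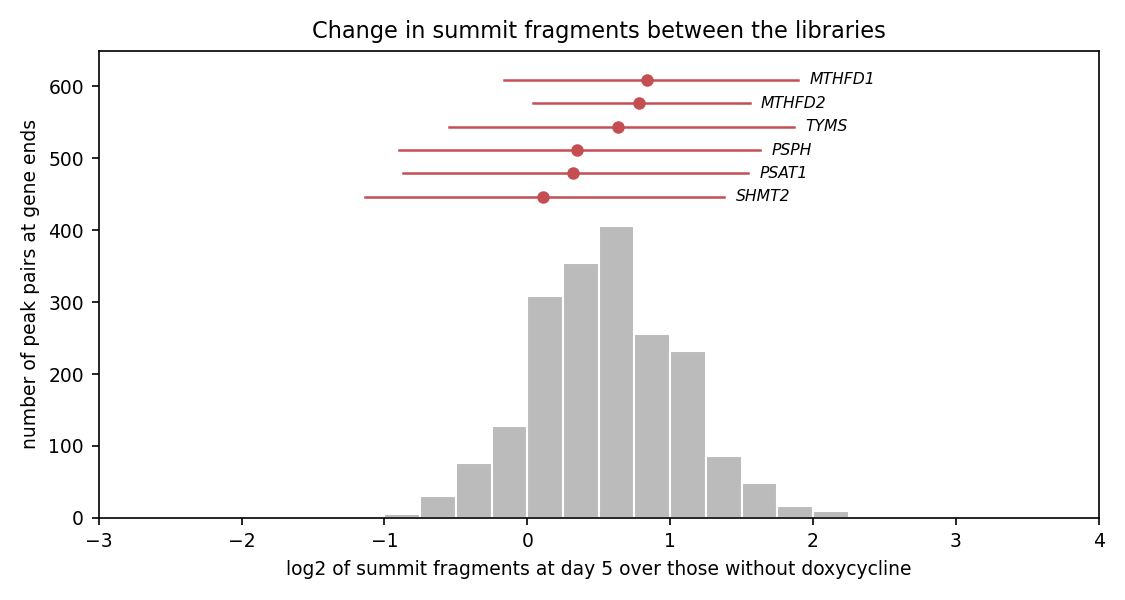
Histogram of the log2 ratio of summit fragments, day 5 over no doxycycline (x axis), for 1964 overlapping peak pairs at protein-coding gene ends (grey bars, y axis in pairs). Red points with exact 95% intervals, placed above the bars at arbitrary heights, are the 6 enzymes listed in both libraries; all 6 lie within the spread of the bars.

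Peak width ratios between the libraries ran from 0.910 at PSPH to 2.69 at PSAT1. PSAT1 went from 521 bp without doxycycline to 1402 bp at day 5, a larger ratio than in 98.0% of pairs. TYMS went from 624 to 1340 bp (2.15 times, larger than in 93.0% of pairs) and MTHFD1 from 742 to 1239 bp (1.67 times, larger than in 78.2%). SHMT2, at 418 and 543 bp, and MTHFD2, at 614 and 747 bp, lay nearer the median ratio of all pairs, 1.23. PSPH, at 580 and 528 bp, was the only 1 of the 6 with a narrower peak at day 5, and its ratio was larger than in 14.6% of pairs. The day 5 peaks of PSAT1, TYMS and MTHFD1 were wider than 98.7%, 98.2% and 97.0% of all day 5 peaks. The summits of PSAT1 and TYMS also lay farthest apart between the libraries, by 572 and 400 bp, where the median pair differed by 113 bp. At PSAT1 the summit was 206 bp inside the gene without doxycycline and 366 bp before it at day 5. The local background at day 5 was 2.38 times as high at PSAT1, 1.84 times at TYMS and 1.96 times at MTHFD1, and 1.25 to 1.44 times at the other 3; its part in the widths was not tested.

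The rest of the pathway was read from 42 further genes of serine, glycine, folate and methionine metabolism. Of these, 10 had a peak without doxycycline (23.8%, 12.1 to 39.5), beside 14.4% of all protein-coding genes, and 18 had one at day 5 (42.9%, 27.7 to 59.0), beside 27.4%. All 10 were listed in both libraries, 8 were added at day 5 (19.0%, beside 14.5% of all genes) and 0 were lost. When the day 5 list was limited to its 3472 best-ranked peaks, 3 of the 8 were still added (CTH, MAT2A and SLC6A9). The others rested on lower-ranked peaks of the longer day 5 list. The share of all genes added at that cut is not given here, so the 3 have no matched background. By role, day 5 peaks were listed at 3 of 6 genes of folate uptake and retention, 3 of 9 of folate interconversion, 2 of 4 of the glycine cleavage system and 2 of 7 of the methionine cycle. They were listed at 3 of 6 genes that use or convert serine, 1 of 5 of its transport and that of glycine, 1 of 2 of transsulfuration and 2 of 2 purine enzymes that take formyl groups from folate. SLC19A1, the reduced folate carrier, had none in either library. ATF4, a transcription factor known to act on the serine synthesis genes, had a peak in both, with 16 (9.15 to 26.0) and 20 (12.2 to 30.9) fragments.

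The 6 pathway genes with the highest-ranked day 5 peaks were all listed in both libraries. FPGS, which adds the glutamate tail that keeps folate in the cell, had 17 (9.90 to 27.2) and 55 (41.4 to 71.6) summit fragments, a ratio of 3.24 (1.85 to 5.95). GART, which uses formyl folate in purine synthesis and shares its peak with SON, had 30 (20.2 to 42.8) and 42 (30.3 to 56.8). ATIC, which takes the other formyl group, had 7 (2.81 to 14.4) and 30 (20.2 to 42.8), a ratio of 4.29 (1.84 to 11.6). Its peak without doxycycline ranked 3281 of 3472 and was not kept when a −log10 q of at least 3 or the upper 50% of the list was required, which leaves no pair. That peak also lay within 1 kb of LOC124907975. For FPGS and ATIC the intervals without doxycycline and at day 5 did not overlap, and their ratios exceeded those of 98.4% and 99.8% of pairs. Both are among genes picked by day 5 rank, which favours a high ratio. The pairs were not picked by rank, so the comparison is a description only. The local background at FPGS and ATIC was 3.54 and 2.79 times as high at day 5, and its part was not tested. PTDSS1, which makes phosphatidylserine, had 19 (11.4 to 29.7) and 31 (21.1 to 44.0) fragments and shares its peak with MTERF3. SLC25A32, the mitochondrial folate carrier, had 15 (8.40 to 24.7) and 24 (15.4 to 35.7) at a peak shared with DCAF13. DLD, the dihydrolipoamide dehydrogenase of the glycine cleavage system, had 20 (12.2 to 30.9) and 22 (13.8 to 33.3).

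**Figure D4:**
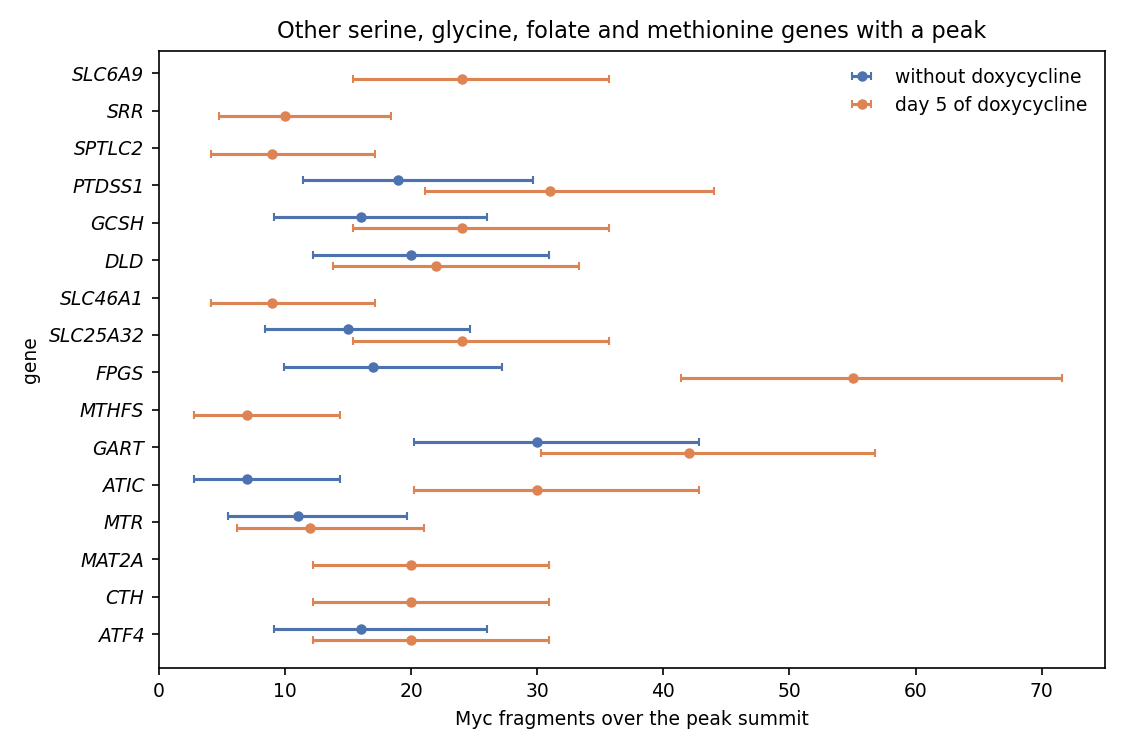
Summit fragments (x axis) with exact Poisson 95% intervals for 16 of the 18 further pathway genes with a Myc peak (y axis), without doxycycline (blue) and at day 5 (orange). A missing blue point means no listed peak in that library; FPGS, at 17 and 55, and ATIC, at 7 and 30, show the widest separation.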

How the data were processed

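The submitters' processing notes name build hg38 and the tools Trim Galore, Bowtie2, deepTools and MACS2. Versions, settings and the use of an IgG control in peak calling: not given in the sources used here. For each library the authors deposited 1 peak list of 10 columns. The authors' peak caller computed the deposited fold of each peak as a ratio of the summit to the local background. The authors' deposited −log10 p-value and −log10 q-value are those at the summit, the smallest −log10 q being 1.33. The deposited score was made by the authors' caller as 10 times the −log10 q-value, cut to a whole number. Total reads per library were not used here.

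Summit fragments n were solved from fold = (n + 1)/(background + 1) and p, taken as the Poisson tail above n. Whole numbers within 0.001 in −log10 p were found for 100.00% of peaks in both libraries. The nearest was kept where several matched, in 5 and 41 peaks, none at the 9 genes. On simulated data, 99.9% of 3418 and 100.0% of 6629 peaks were recovered. The simulation used the same formulas and left out the smallest fragment numbers, so it checks the solving step only. Ranks used the −log10 q within a list. For each gene the best-ranked peak of each library was taken. The 2 were counted among the overlapping pairs if they overlapped by 1 bp or more, each pair once.

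Samples were grouped by title. All 9 enzymes are described; from the pathway list, the 6 with the best-ranked peaks at day 5 and any listed only without doxycycline (there were 0) are named, with 3 genes most like the leading enzyme; SLC19A1 and ATF4 were added after their values were seen. Values of some pathway genes are not reported here. The members and lists were chosen with earlier results of these data known. Alternatives changed the window, the peak threshold, the number of peaks, the overlap, the summit rule and the motif window. Python 3.11.15, SciPy 1.17.1 and pandas 2.3.3 were used.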

Additional observations from a re-analysis of the deposited data

How the results depend on the processing

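Of 40 alternative values for the counts, 34 were within 1.5 times the reported count. Shares of all protein-coding genes with a peak are not given here for these alternatives. The peak counts below therefore have no matched background and show only how far the counts move. The 9 enzymes kept 7 with a day 5 peak under each of the 6 alternatives of window, threshold, peak number and summit. Without doxycycline they had 4 to 6: the upper 50% of the list by rank left out PSPH and TYMS, and the window of 500 bp left out TYMS. The pathway counts ran from 9 to 10 without doxycycline and from 13 to 20 at day 5, where equal numbers of peaks gave 13. ATIC was the gene without its peak at 9. Genes listed only at day 5 were 2 of the enzymes (MTHFD1L and TYMS) with the window of 500 bp and 3 (with PSPH) in the upper 50%, in place of 1. For the pathway they were 4 in the upper 50% and 3 with equal numbers of peaks, in place of 8. Reciprocal overlap of 50% kept 4 of the 6 shared peaks, without PSAT1 and TYMS, and summits within 500 bp kept 5, without PSAT1. CACGTG was found in 1 gene (MTHFD1) when only the 100 bases before the start were read, and in 4 when the variants were added, in place of 2. The motif counts follow from the smaller window and the added letters. All 13 fragment values were unchanged when all peaks within the window were summed, because each gene had 1. No paired analysis was possible because each condition used here had 1 library. Fragment numbers were low: 5 of the 6 shared enzymes had 11 to 14 at the summit without doxycycline, and the interval of each of their ratios held 1. A ratio of 1 does not mark no change here, because fragments were not scaled for total reads. The median ratio of all pairs was 1.44, and the interval of MTHFD2 held it, as did the others.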

Other observations

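Of the 8 pathway genes listed only at day 5, 7 are named here after their values were seen. SLC6A9, a glycine transporter, had 24 summit fragments (15.4 to 35.7). CTH, which makes cysteine from cystathionine, and MAT2A, which makes S-adenosylmethionine, each had 20 (12.2 to 30.9). SRR, which makes D-serine, had 10 (4.80 to 18.4), and SPTLC2, a subunit of the enzyme that joins serine to a fatty acid, had 9 (4.12 to 17.1). SLC46A1, the proton-coupled folate transporter, also had 9. MTHFS, which acts on formyl folate, had 7 (2.81 to 14.4). The peak of SRR was shared with SMG6, that of SLC6A9 with LOC107984948 and that of MAT2A with PARTICL.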
